A study of Mus musculus with 12 samples.

Results

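Translation factors are the proteins that start, drive and end protein synthesis on the ribosome. Their transcripts were taken here as the protein-coding genes whose symbol starts with Eif and a digit, together with Eef1a1, Eef1a2, Eef1b2, Eef1d, Eef1g, Eef2, Etf1, Gspt1 and Pabpc1, without pseudogene names. Of 64 genes found by name, 62 had at least 100 counts summed over the 12 libraries, out of 21819 protein-coding genes in the count table. Just above that minimum stood Eif3j2 with 342 counts, and just below it Eif4ebp3 with 32 counts, while Eif4e1b was listed at 0. The rule used summed counts and gene names, and no fold change. All 62 passed the filter on low counts and were tested.

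The RNA came from wild-type C57BL/6 mice, from cortex at embryonic day 12.5 and from retina at postnatal day P0. Dissociated cells were used for RNA immunoprecipitation (RIP), in which an antibody against Ythdf1 or Ythdf2 pulls the protein down with the RNA bound to it, and input RNA was sequenced beside the eluates. This gave 6 groups of 2 libraries: input, Ythdf1 IP and Ythdf2 IP for each tissue. Input is the only background used here, tissue and age differ together, and nothing says that the replicates came from separate animals, so the p-values measure the spread between these libraries, which may be technical.

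Initiation begins when eIF2 delivers the initiator tRNA to the small ribosomal subunit and eIF3, eIF1 and eIF1A hold the complex open for scanning. eIF4E binds the mRNA cap, eIF4G bridges it to eIF3 and to the poly(A)-binding protein, and eIF4A unwinds the leader. eEF1A and eEF2 then bring in aminoacyl-tRNA and move the ribosome along, and eRF1 and eRF3 release the finished chain. Ythdf1 and Ythdf2 are cytoplasmic proteins that bind N6-methyladenosine in mRNA; Ythdf1 has been linked to translation and Ythdf2 to decay of the bound mRNA.

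To illustrate base composition, a stretch of 60 coding bases is shown for 4 of the transcripts called lower in the retina Ythdf1 IP. Beside them stand 4 whose values lay above input, of which Eif4g1 and Eef2 did not pass the test in the 12-library fit. The called members do not split cleanly by composition. Eif5a, called lower but not shown, had 55.0% G and C, Eef1b2, also lower and not shown, 46.2%, and Eif2b2, called higher, 55.1%. Each stretch is read in frame within 1 exon of the GENCODE transcript, 5′ to 3′ along the mRNA, and was chosen as the one whose share of G and C is closest to that of the whole mRNA, so it illustrates that share and is not a separate finding. G and C are in capitals. On GRCm38 they are Eif3e at chr15:43251519-43251578 on the minus strand in exon 12 of 13, Eif4e at chr3:138553603-138553662 in exon 7 of 8, Eif3j1 at chr2:122052033-122052092 in exon 8 of 8, and Eif2s1 at chr12:78866587-78866646 in exon 2 of 8. They continue with Eif4g1 at chr16:20679515-20679574 in exon 9 of 32, Eef2 at chr10:81178701-81178760 in exon 4 of 14, Eif2b2 at chr12:85226005-85226064 in exon 8 of 8, and Eif2ak3 at chr6:70882295-70882354 in exon 6 of 17, these and the preceding 3 on the plus strand. G and C make up 24, 24, 27 and 24 of the 60 bases in the first 4 and 32, 34, 35 and 31 in the last 4.
Eif3e: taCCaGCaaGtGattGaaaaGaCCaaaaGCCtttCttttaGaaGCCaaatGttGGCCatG
Eif4e: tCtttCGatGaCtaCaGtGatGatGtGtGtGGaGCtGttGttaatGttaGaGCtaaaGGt
Eif3j1: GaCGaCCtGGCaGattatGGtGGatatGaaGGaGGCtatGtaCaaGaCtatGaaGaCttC
Eif2s1: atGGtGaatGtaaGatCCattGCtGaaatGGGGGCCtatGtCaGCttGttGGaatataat
Eif4g1: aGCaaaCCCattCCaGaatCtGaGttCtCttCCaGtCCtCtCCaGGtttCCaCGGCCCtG
Eef2: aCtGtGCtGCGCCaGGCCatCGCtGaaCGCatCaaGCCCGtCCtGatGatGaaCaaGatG
Eif2b2: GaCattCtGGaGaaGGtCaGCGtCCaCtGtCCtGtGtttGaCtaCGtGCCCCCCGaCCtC
Eif2ak3: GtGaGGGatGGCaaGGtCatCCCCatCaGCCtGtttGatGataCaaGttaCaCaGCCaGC

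The libraries held 19530226 to 40515980 counts, of which 1676910 to 13621485 fell on protein-coding genes. The 62 translation factor genes took 11272 to 291316 counts per library, with 1.55 to 2.60% of the protein-coding counts in 11 libraries and 0.672% in the library labelled Cortex Input replicate 1. That library stands apart from its label. Its summed level of 8 mature brain markers was 3195 CPM (counts scaled to library size), against 17.0 to 25.3 in the other cortex libraries, and its summed level of 11 embryonic cortex markers was 64.0 CPM, against 603 to 940. It is kept in the 12-library fit, and the counts of called members, the cortex and tissue medians and the cortex comparisons by length are also given without it. In the retina, 12 neonatal retina markers summed to 311 to 418 CPM. Lens and pigment cell markers were at or near 0. Mitochondrial ribosomal RNA took 17.3 and 16.7% of the counts in the retina inputs and 0.377 to 0.475% in the retina IP libraries. In the cortex it took 71.0% in the library labelled Cortex Input replicate 1, 12.7% in replicate 2, and 0.274 to 2.34% in the IP libraries. This share differed between input and IP in every such comparison, and its part in the fold changes was not tested.

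CPM values below are scaled by edgeR's trimmed mean of M-values (TMM) over all genes. Compared per kilobase of the reference mRNA, Eef1a1, the main carrier of aminoacyl-tRNA, was the most abundant member in the retina inputs, with 958 and 756 CPM per kilobase. Eef2, the translocase, followed with 125 and 72.8, so both stood above the next member, Eif1, at 60.6 and 49.5. The libraries of Eif1 and of Eif3h, at 54.8 and 38.2, overlapped, and so did those of Eif3h and of Pabpc1, at 28.6 and 43.7, so these neighbours have no order beyond the spread of the inputs. In Cortex Input replicate 2 the order was Eef1a1 at 483 CPM per kilobase, Eef2 at 79.9, Pabpc1 at 55.4 and Eif4a1 at 51.3. Eef1a1 alone held 26.8 to 49.2% of the members' counts over the 12 libraries and Eef2 7.65 to 32.0%.

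In the retina, Eif3e, Eif3j1, Eif4e, Eif1ax, Eif2s1, Eef1b2, Eif5a and Eif4a2 were lower in the Ythdf1 IP than in input, and Eif2b2 and Eif2ak3 were higher. In the 12-library fit, these 8 of 62 members (12.9%) were lower and 2 (3.23%) were higher at an adjusted p below 0.05 (edgeR's quasi-likelihood test, Benjamini-Hochberg adjustment over 18458 genes). Over all genes tested, 8.80% were called in this comparison, 5.23% lower and 3.57% higher. The members' median log2 fold change was -0.48, against 0.00 over all genes and 0.13 over protein-coding genes, and 39 of 62 lay below 0. Without the library labelled Cortex Input replicate 1, 23 members were lower and 6 higher, while 13.4% and 13.7% of all genes were. DESeq2 called 20 members, beside 19.6% of all genes. Scaling by library totals left 0 members and 0% of all genes called, and limma on log2 FPKM left 0 members beside 0.298% of all genes. The count depended on single libraries in both directions. It was 30 without Cortex Input replicate 2 (26.3% of all genes), 6 and 3 without Cortex Ythdf1 IP replicates 1 and 2, 4 without Cortex Ythdf2 IP replicate 1, 3 without Retina Input replicate 1, and 1 without either Retina Ythdf2 IP library, where 1.46 to 4.71% of all genes were called. The calls did not hold without Retina Input replicate 2 or without either Retina Ythdf1 IP library, and the share of all genes in those fits is not given here. Every fit that leaves out 1 library, those with more calls too, leaves a group with 1 library.

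**Figure D1:**
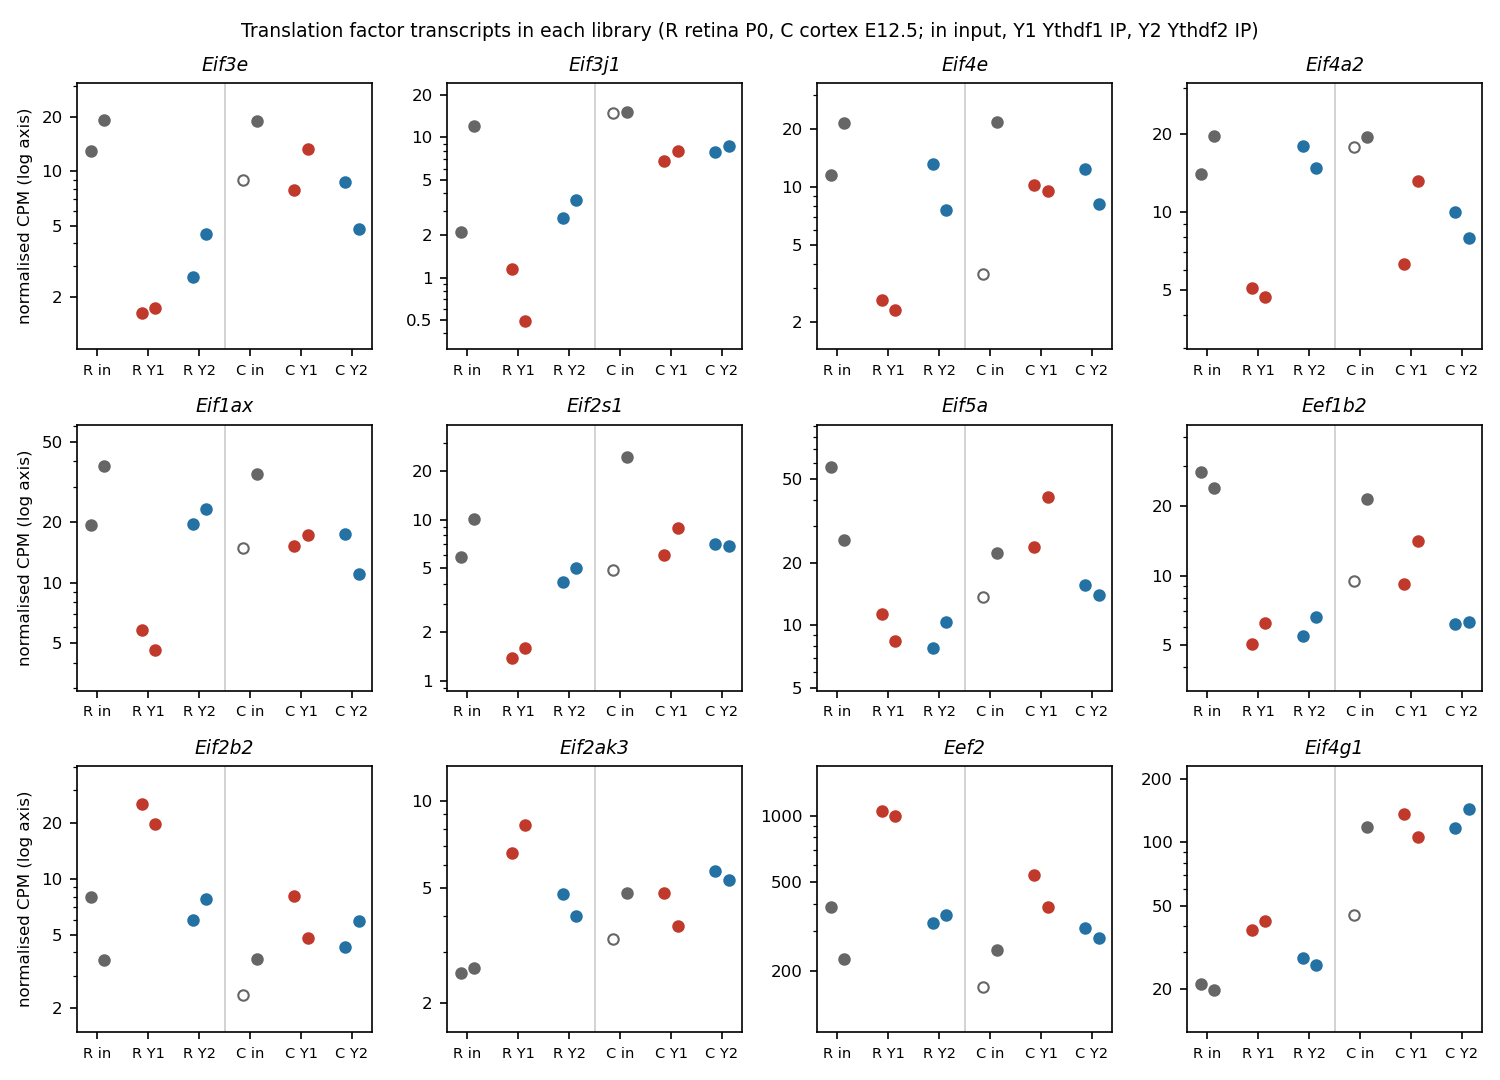
Normalised CPM (log axis) of 12 translation factor transcripts in each of the 12 libraries, with replicate 1 on the left and replicate 2 on the right of each group. Input is grey, Ythdf1 IP red and Ythdf2 IP blue, and the open circle is the library labelled Cortex Input replicate 1. In the retina both Ythdf1 IP libraries lie below both inputs for the 8 genes in the upper rows and above both for the 4 in the lowest row.

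The eIF3 complex, the scaffold of the scanning ribosome, contributed the lowest values. Eif3e, one of its subunits, was at 13.1 and 19.4 CPM in the retina inputs, 1.64 and 1.74 with Ythdf1, and 2.58 and 4.47 with Ythdf2. All 4 IP libraries lay below both inputs, and its log2 fold change in the Ythdf1 IP was -3.26 (SE 0.57, adjusted p = 0.0140). This call was kept in 9 of the 12 fits that left out 1 library each, the most of any member. Eif3j1, a loosely bound subunit near the decoding site, was at 2.12 and 12.1 CPM in the inputs and 1.16 and 0.49 with Ythdf1. The groups did not overlap, but the inputs differed from each other more than input replicate 1 differed from the IP: the log2 fold change was -3.09 (SE 0.73, adjusted p = 0.0274), and it was -0.98 against input replicate 1 alone and -3.25 against replicate 2 alone. Eif3j1 overlaps Spg11 on the other strand, and the strand setting of the counting is not given in the sources used here.

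The other eIF3 subunits did not move as one. The 14 members of the complex had a median log2 fold change of -0.87 with Ythdf1, 9 of them below 0. When the library labelled Cortex Input replicate 1 was left out, Eif3a, Eif3e, Eif3g, Eif3h, Eif3j1, Eif3k and Eif3m were lower and Eif3b was higher. Eif3a, the largest subunit, had 9.98 and 52.1 CPM in the inputs and 7.02 and 7.78 in the Ythdf1 IP, so its distance from input rested mostly on replicate 2. Eif3j2, a copy of Eif3j1 that lies in 1 exon, had 0 counts in both retina inputs and 10 and 4 in the Ythdf1 IP, and reads may be split between these copies, so its fold change is left out. Its place above the median does not move the members' medians, which stay at -0.48 with Ythdf1 and -0.38 with Ythdf2 when 3 counts stand in for each input.

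Of eIF2 and its regulators, 1 of 6 eIF2 genes was lower, and 1 of 5 eIF2B subunits and 1 of 4 eIF2 kinases were higher. Over all genes 5.23% were lower and 3.57% higher. A single call in groups this small does not set them apart, and the difference between these groups was not tested. Eif2s1, the alpha subunit that stress kinases phosphorylate, was at 5.88 and 10.1 CPM in the retina inputs and 1.38 and 1.59 with Ythdf1. The groups did not overlap, and its log2 fold change was -2.43 (SE 0.66, adjusted p = 0.0430). The 6 genes of eIF2 and initiator tRNA delivery had a median of -1.59. Eif2b2, a subunit of the exchange factor eIF2B that reloads eIF2 with GTP, was at 7.93 and 3.66 CPM in the inputs and 25.3 and 19.7 with Ythdf1. Both IP libraries lay above both inputs (log2 fold change 1.96, SE 0.51, adjusted p = 0.0367).

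Eif2ak3 encodes PERK, the eIF2 kinase of the endoplasmic reticulum. It had 2.54 and 2.64 CPM in the retina inputs and 6.60 and 8.24 with Ythdf1. The inputs were close together and below both IP libraries, and the log2 fold change was 1.52 (SE 0.42, adjusted p = 0.0465), with 1.38 and 1.33 against each input alone. The 4 eIF2 kinases had a median of 0.88 and the 5 eIF2B subunits 0.47. In the fit without the library labelled Cortex Input replicate 1, Eif2ak4, which senses uncharged tRNA, was also higher (1.27, adjusted p = 0.0182), and Eif2a, Eif2s2 and Eif2s3x joined Eif2s1 among the lower genes.

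Among scanning factors, Eif1ax, which encodes eIF1A, was at 19.4 and 38.2 CPM in the retina inputs and 5.86 and 4.65 with Ythdf1. The groups did not overlap, and the log2 fold change was -2.45 (SE 0.54, adjusted p = 0.0240). The Ythdf2 IP, at 19.6 and 23.3 CPM, lay within the range of the inputs. Of the 5 scanning genes, Eif1 and Eif1b were lower with Ythdf1 as well once the library labelled Cortex Input replicate 1 was left out, while Eif1a and Eif1ad had fold changes of 0.20 and 0.05 with all 12 libraries.

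In the cap complex, Eif4e, the cap-binding protein, was at 11.6 and 21.3 CPM in the retina inputs and 2.61 and 2.30 with Ythdf1. Both IP libraries lay below both inputs, and the log2 fold change was -2.74 (SE 0.72, adjusted p = 0.0382). Eif4a2, a paralog of the helicase Eif4a1, was at 14.0 and 19.7 CPM in the inputs and 5.12 and 4.72 with Ythdf1. Its groups did not overlap either (-1.77, SE 0.46, adjusted p = 0.0358). Eif4a2 hosts small nucleolar RNAs on its own strand and overlaps Rfc4 on the other, so reads from these could be counted with it.

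The 3 eIF4G genes had unlike values. Eif4g1, the main scaffold, was at 21.3 and 19.9 CPM in the retina inputs and 38.1 and 42.2 with Ythdf1, above both inputs (log2 fold change 0.96, SE 0.53, adjusted p = 0.265, and 0.0297 without the library labelled Cortex Input replicate 1). Eif4g2, a relative that lacks the eIF4E-binding part, was at 246 and 258 CPM in the inputs and 86.6 and 85.5 with Ythdf1, with -1.55 (SE 0.66, adjusted p = 0.157, and 0.00561 without that library). Eif4g3 lay at 20.4 and 20.3 CPM in the inputs and 12.5 and 12.9 with Ythdf1, and its log2 fold change of -0.68 did not pass the test in either fit.

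Of the 6 elongation factors, Eef1b2 was lower and no other was called, beside 5.23% of all genes lower and 3.57% higher. Eef1b2, a nucleotide exchange subunit for eEF1A, was at 28.3 and 24.0 CPM in the retina inputs, 5.05 and 6.20 with Ythdf1, and 5.46 and 6.62 with Ythdf2. All 4 IP libraries lay far below both inputs, and the log2 fold change with Ythdf1 was -2.21 (SE 0.48, adjusted p = 0.0226). Eef1b2 overlaps Ndufs1, whose reads could be counted with it. Eef2 was at 386 and 225 CPM in the inputs and 1047 and 997 with Ythdf1, with no overlap. Its log2 fold change of 1.74 (SE 0.61) had an adjusted p of 0.0923 with all 12 libraries and of 0.00372 without the library labelled Cortex Input replicate 1. Eef1a1, at 1718 and 1356 CPM in the inputs and 1341 and 1295 with Ythdf1, had a log2 fold change of -0.22 and did not pass the test.

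Eif5a encodes the hypusine-bearing factor that helps ribosomes past difficult peptide bonds. It was at 57.2 and 25.8 CPM in the retina inputs and 11.3 and 8.39 with Ythdf1. The groups did not overlap (log2 fold change -2.07, SE 0.53, adjusted p = 0.0342). Of the release factors, Etf1 (eRF1) and Gspt1 (eRF3) had fold changes of -0.34 and 0.84 and did not pass the test. Pabpc1, the poly(A)-binding protein, was at 80.6 and 123 CPM in the inputs and 46.6 and 48.9 with Ythdf1 (-1.09, adjusted p = 0.254, and 0.0439 without the library labelled Cortex Input replicate 1).

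**Figure D2:**
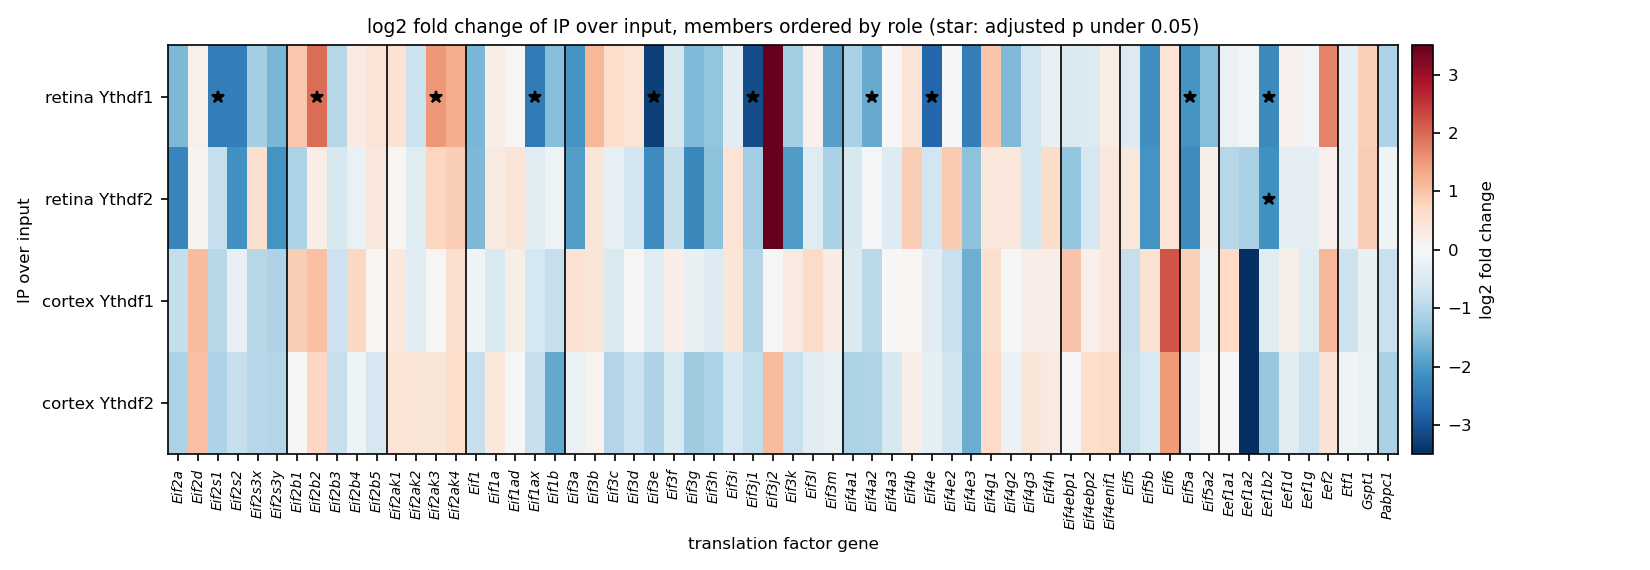
Log2 fold change of every member in the 4 IP against input comparisons (rows), from the 12-library fit, with members (columns) grouped by role. Blue is below input and red above, and the colours saturate, so the values of Eif3j2 and Eef1a2 lie beyond the scale. The 8 members called lower with Ythdf1 in the retina lie in the scanning, eIF2, eIF3, eIF4, eIF5A and elongation groups, while 3 of 4 eIF2 kinases and 4 of 5 eIF2B subunits lie above 0.

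With Ythdf2 in the retina, 1 member was lower and none higher, Eef1b2 (log2 fold change -2.11, SE 0.48, adjusted p = 0.0479), beside 2.04% of all genes called, 1.76% lower and 0.282% higher. At an unadjusted p below 0.05 there were 12 members. The share of all genes at that threshold is not given here or below, so such counts cannot be read as an excess among the members. The median over members was -0.38, with 39 of 62 below 0. Without the library labelled Cortex Input replicate 1, 10 members were lower and none higher (13.5% of all genes called, 7.64% lower and 5.82% higher): Eef1b2, Eif1, Eif2a, Eif2s2, Eif3a, Eif3e, Eif3g, Eif3h, Eif3k and Eif5a. Leaving out Cortex Input replicate 2 also gave more calls than the 12-library fit, and the call of Eef1b2 was lost without any other single library. Each such fit leaves a group with 1 library, and the share of all genes in the fits that lost the call is not given here. Eif3e missed the threshold with all 12 libraries (-2.20, SE 0.55, adjusted p = 0.0655, and 0.00214 without the library labelled Cortex Input replicate 1). The Ythdf1 and Ythdf2 comparisons share their input libraries, so similar values in both are not independent.

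Set against each other, the Ythdf1 and Ythdf2 IPs of the retina gave no called member in the 12-library fit, where 0% of all genes were called by edgeR's quasi-likelihood test. There were 12 members at an unadjusted p below 0.05, with no share of all genes at that threshold beside them. At an adjusted p below 0.05 DESeq2 called 7, beside 3.74% of all genes. In the fit without Cortex Input replicate 1, 3 members were higher with Ythdf1 than with Ythdf2 and 7 were lower (6.02% of all genes called, 2.14% higher and 3.88% lower). The higher ones were Eef2 (1.59, adjusted p = 0.0255), Eif2b1 (2.06, adjusted p = 0.00623) and Eif2b2 (1.72, adjusted p = 0.0189). The lower ones were Eif1ax, Eif1b, Eif2s1, Eif2s3x, Eif4a2, Eif4e and Eif4g2, with log2 fold changes from -2.07 for Eif4e to -1.29 for Eif1b. Per library, Eif4g2 was at 365 and 297 CPM with Ythdf2, above both inputs, and at 86.6 and 85.5 with Ythdf1, below both. The 7 lower members did not share this place of the Ythdf2 IP. Eif1ax with Ythdf2 lay within the range of the inputs, and Eif2s1 with Ythdf2 lay below both. The fold changes of the Ythdf1 to Ythdf2 comparison use no input mean. Its p-values rest on a filter, scaling and spread estimated over all libraries of a fit, the inputs included.

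In the cortex no member was called with either antibody in the 12-library fit, beside 0.00542% of all genes with Ythdf1 and 0.0108% with Ythdf2. At an unadjusted p below 0.05 there were 2 and 6 members, DESeq2 called 2 and 3 (7.29% and 11.99% of all genes), and limma 0 and 1 (0.0325% and 0.986%). The side on which the members lay depended on the input library. Against the library labelled Cortex Input replicate 1 alone, the members' median log2 ratio was 0.82 with Ythdf1 and 0.50 with Ythdf2. Against Cortex Input replicate 2 alone it was -0.42 and -0.85. Without the first of these libraries the fitted medians went from 0.02 to -0.46 with Ythdf1 and from -0.37 to -0.88 with Ythdf2. In that fit 2 members were lower with Ythdf1 (3.72% of all genes called, 2.17% lower), Eif2s1 (-1.73, adjusted p = 0.0250) and Eif2s3x (-1.61, adjusted p = 0.0255). With Ythdf2, 11 were lower (7.48% called, 5.0% lower and 2.48% higher) and none higher: Eef1b2, Eef1g, Eif1b, Eif2s1, Eif2s3x, Eif3c, Eif3d, Eif3g, Eif3h, Eif4a1 and Pabpc1. Leaving out Cortex Input replicate 2 gave 16 and 14 called, beside 25.1% and 28.2% of all genes. In all such fits 1 cortex input is assumed to vary like the other groups.

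Eif2s1 illustrates the cortex values. It was at 4.86 CPM in the library labelled Cortex Input replicate 1, 24.3 in replicate 2, 6.05 and 8.91 with Ythdf1, and 7.09 and 6.82 with Ythdf2. The 4 IP libraries lay between the inputs. Eif3e had 9.01 and 19.0 CPM in the inputs, 7.93 and 13.3 with Ythdf1, and 8.70 and 4.80 with Ythdf2, so the Ythdf1 IP overlapped the inputs and the Ythdf2 IP lay below them. Eif4g1 had 44.8 and 118 CPM in the inputs, 136 and 106 with Ythdf1, and 117 and 144 with Ythdf2. Its IP libraries were all far above the first input and around the second. Cortex Ythdf1 against Ythdf2 gave no called member (0% of all genes), with 3 at an unadjusted p below 0.05 and none by DESeq2, and 0 of 62 without the library labelled Cortex Input replicate 1 (0.705% of all genes, 0.671% higher and 0.0345% lower).

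Eef1a2 is the isoform of eEF1A of mature neurons and muscle, where it takes over from Eef1a1 after birth. It was at 71.2 CPM in the library labelled Cortex Input replicate 1, 0.842 in Cortex Input replicate 2, and 0.644 to 1.27 in the 4 cortex IP libraries. That library had 0.187 Eef1a2 counts per Eef1a1 count, while the other 11 libraries had 0.000685 to 0.00435. The mature brain markers given above stand out in the same library, and their part in the Eef1a2 value was not tested. The fitted log2 fold change of Eef1a2 was -5.18 with Ythdf1 (SE 1.39, adjusted p = 0.172) and -5.66 with Ythdf2 (SE 1.41, adjusted p = 0.0907) with all 12 libraries. Without that library the values were 0.22 and -0.26.

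**Figure D3:**
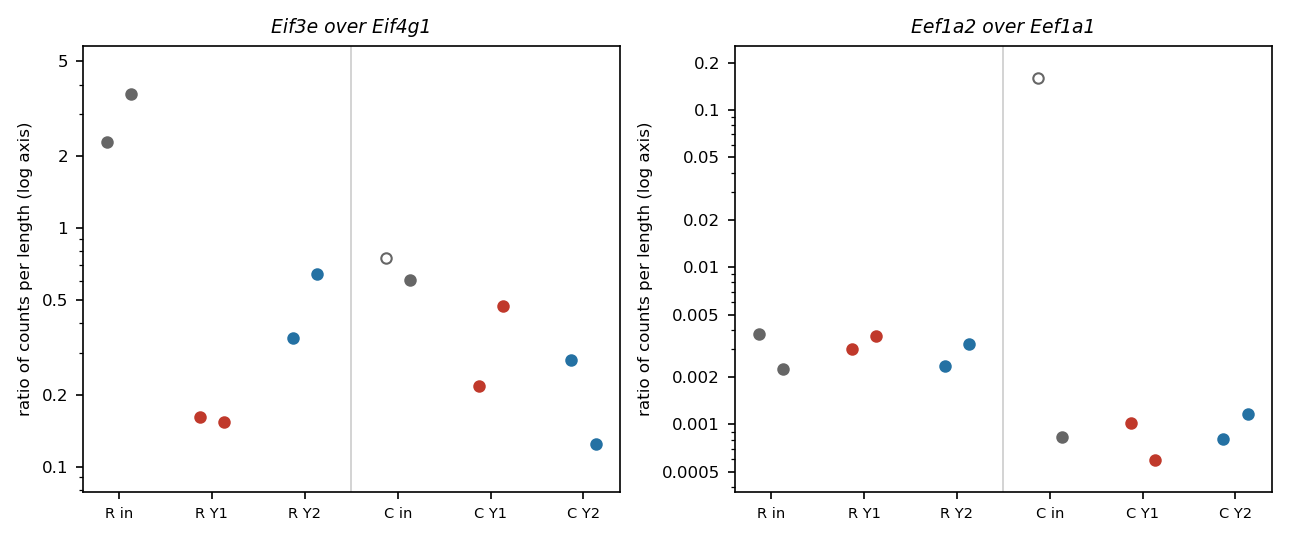
Ratios of 2 transcripts within each library, both per length of the reference mRNA, on a log axis: Eif3e over Eif4g1, and Eef1a2 over Eef1a1. The IP libraries lie below the inputs of their tissue in the first ratio, and 1 library, the open circle labelled Cortex Input replicate 1, stands far above the other 11 in the second.

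Between the inputs, the retina differed from the cortex in 2 members in the 12-library fit, beside 7.52% of all genes called, 3.51% higher and 4.01% lower. Eif1 was at 80.2 and 65.4 CPM in the retina and 17.6 and 20.3 in the cortex inputs. All retina values lay above the cortex values (log2 fold change 1.94, SE 0.48, adjusted p = 0.0332). Eif4g1 was lower in the retina (-1.99, SE 0.54, adjusted p = 0.0475), with 21.3 and 19.9 CPM against 44.8 and 118. Without the library labelled Cortex Input replicate 1, 2 members were higher and 15 lower in the retina (8.82% and 11.1% of all genes). The higher ones were Eif1 (1.82) and Eef1a2, whose fold change turned from -2.70 to 2.68 (adjusted p = 0.186 and 0.00596). Among the lower ones, Eif3c had -2.94, Gspt1 -2.73, Eif4g1 -2.54 and Etf1 -1.95. Leaving out either cortex input gave more calls than the 12-library fit, and leaving out any other single library gave fewer. Each such fit leaves a group with 1 library, and the share of all genes in the fits with fewer calls is not given here. Red blood cell markers were at 336 and 1034 CPM in the cortex inputs and at most 1.15 in the retina libraries, and in such bulk samples fewer cells of a type and less RNA per cell cannot be told apart.

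The difference between the tissues in IP enrichment was tested directly. No member was called for Ythdf1 (0.00542% of all genes) or for Ythdf2 (0.0325%) by edgeR's quasi-likelihood test. There were 10 and 2 members at an unadjusted p below 0.05, and DESeq2 called 4 and 0 (6.31% and 2.44% of all genes). The members' median difference, retina minus cortex, was -0.52 for Ythdf1 and -0.08 for Ythdf2, with -0.08 and -0.13 over all genes. In the fit without Cortex Input replicate 1 the members' medians were -0.18 and 0.35. Eif5a had a difference of -2.92 (SE 0.73, adjusted p = 0.152). With Ythdf1 it was below input in the retina, and in the cortex it stood at 23.6 and 41.1 CPM against 13.6 and 22.2 in the inputs. Without the library labelled Cortex Input replicate 1 its difference was -2.58 (adjusted p = 0.0370), and Eif3c (1.94, adjusted p = 0.0422) and, for Ythdf2, Eif2s3x (2.18, adjusted p = 0.0474) were called, beside 3.52% and 0.917% of all genes (for Ythdf1 1.11% higher and 2.41% lower). With Cortex Input replicate 2 left out, 28 and 19 members were called, beside 25.6% and 21.6% of all genes. Over the 4 IP comparisons, 22 members lay below 0 in each and 13 above 0 in each, and 25 and 6 without the library labelled Cortex Input replicate 1. These comparisons share inputs.

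Short and long members were compared as the 21 shortest, the 20 between and the 21 longest, and the order depended on how length was measured. By the union of exons, the shortest members were Eif1b (1125 bases), Eif3h (1612) and Eif2b2 (1885), and the longest Eif4g3 (11063), Eif4g2 (10166) and Eif5b (9753). With Ythdf1 in the retina, the 21 shortest had a median log2 fold change of -0.22 and the 21 longest -0.68, which is 0.46 higher for short members. By the length of the reference mRNA the medians were -1.15 for the shortest (909 to 2013 bases), 0.04 for those between and -0.68 for the longest (3647 to 8134), so the difference turned to -0.46. Protein-coding genes in the same 3 mRNA ranges had medians of -0.48, 0.09 and 0.58. The longest members thus had a lower median than other genes of their length.

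With Ythdf2 the short members lay below the long ones under every length used, by 0.77 for exons, by 1.08 for the length implied by counts and FPKM, and by 1.18 for the mRNA. Their medians by mRNA length were -1.12, -0.09 and 0.06, and those of protein-coding genes of the same lengths -0.57, 0.00 and 0.47. In the cortex the difference was 0.03 for Ythdf1 and -0.24 for Ythdf2 by exons, and 0.15 and -0.01 without the library labelled Cortex Input replicate 1. By the length of the reference mRNA it was 0.04 and -0.60, and 0.15 and -0.37 without that library. By implied length it was -0.02 and -0.24, and -0.07 and -0.06 without it. Of the 6 genes named by length, Eif1b, Eif3h, Eif4g3, Eif4g2 and Eif5b had no call in the 12-library fit. Eif5b, the factor that joins the ribosomal subunits, had 1.70 and 11.8 CPM in the retina inputs and 0.837 and 2.19 with Ythdf1, so 1 IP library lay between the inputs.

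Eif3e and Eif4g1 show how far the measures of length differ. Their exon unions were 6719 and 7301 bases, while their reference mRNAs were 1506 and 5638 bases, with 40.3% and 54.2% G and C. Eif3e lies at chr15:43250058-43282719 on the minus strand and Eif4g1 at chr16:20668313-20692884 on the plus strand of GRCm38. Per length of mRNA, Eif3e stood at 2.30 and 3.64 times Eif4g1 in the retina inputs. The ratio was 0.161 and 0.154 with Ythdf1 and 0.345 and 0.643 with Ythdf2. In the cortex it was 0.753 and 0.604 in the inputs, 0.218 and 0.469 with Ythdf1, and 0.279 and 0.125 with Ythdf2. Within each tissue the IP libraries lay below both inputs with either antibody, but an exact two-sided permutation test of 2 against 2 cannot go below 0.333.

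Whether base composition or mRNA length went more with the Ythdf1 values of the members depended on the input library. With both inputs, over the 62 members, the log2 fold change with Ythdf1 in the retina had a Spearman correlation of 0.52 with the share of G and C in the mRNA and 0.05 with mRNA length. Over 14169 protein-coding genes the same values were 0.34 and 0.33. With Ythdf2 they were 0.14 and 0.35 for the members. For the Ythdf1 to Ythdf2 ratio in the retina, which uses no input mean, they were 0.60 and -0.30 (0.40 and -0.02 over protein-coding genes). In the cortex the same ratio went more with length, with 0.37 and -0.65 (0.09 and -0.33 over protein-coding genes). The cortex Ythdf1 IP replicates also differed by length between themselves. Over the members, the ratio of replicate 1 to replicate 2 had correlations of 0.02 with G and C and 0.63 with mRNA length. For the cortex Ythdf2 IP replicates they were -0.32 and 0.12. All points share their libraries, G and C content goes with mRNA length in the members (-0.36), and genes are not independent replicates. Among the 21 members with the least G and C (38.8 to 45.0%), the median with Ythdf1 was -1.77, 19 of them lay below 0, and 6 were called lower. Protein-coding genes in that range had a median of -0.62, with 10.1% called lower. Among the 21 with the most (51.7 to 60.6%) the median was -0.00, while that of other genes in the range was 0.59.

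**Figure D4:**
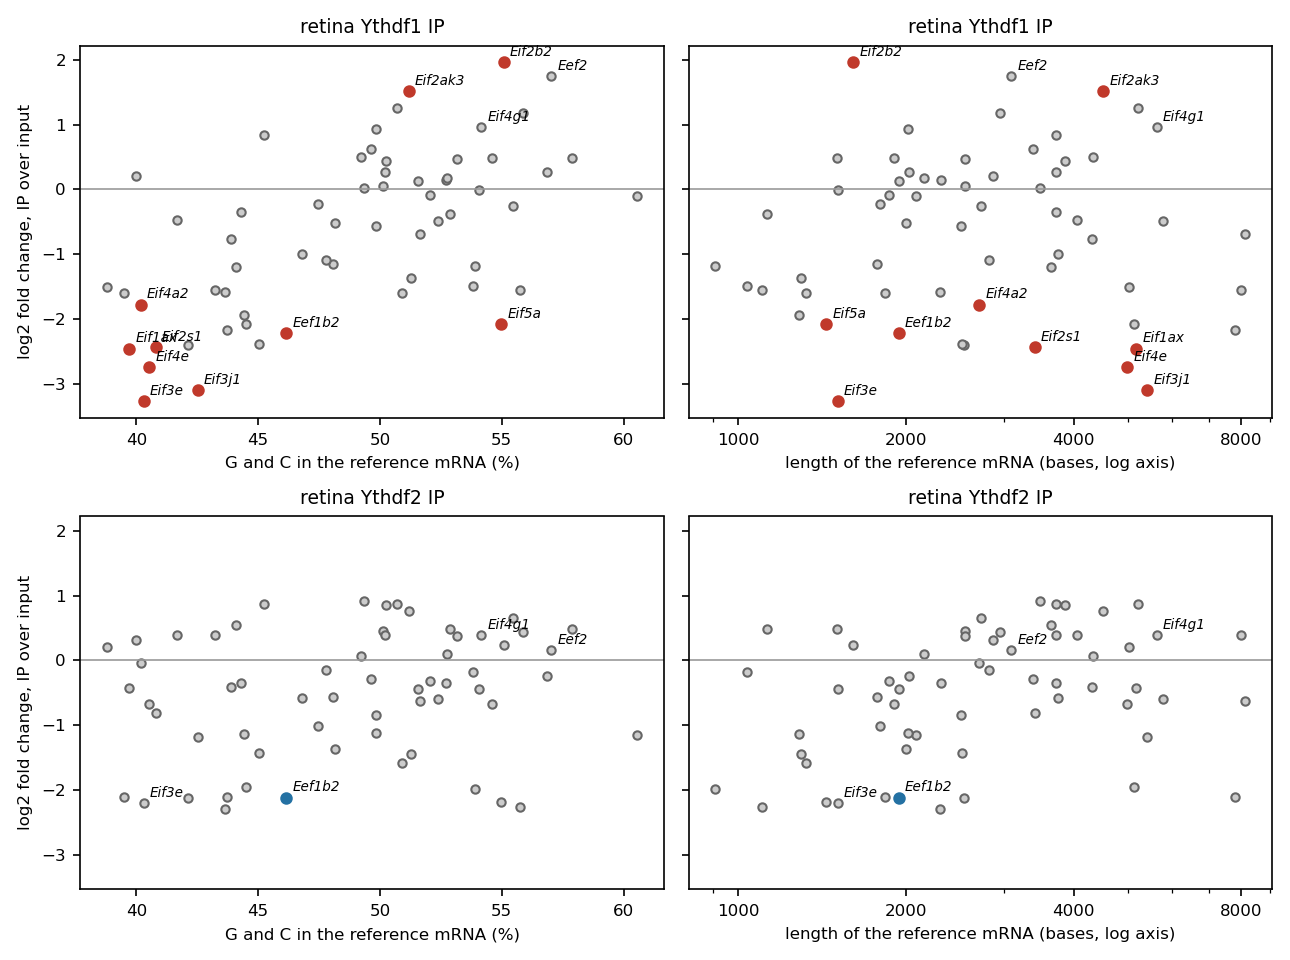
Log2 fold change against input in the retina for each member except Eif3j2, plotted against the share of G and C in the reference mRNA (percent) and against its length (bases, log axis), for the Ythdf1 and Ythdf2 IPs. With Ythdf1 most members of low G and C content lie below 0, and with Ythdf2 most of the short ones do.

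The difference between the retina inputs went with base composition and, less strongly, with mRNA length. Over the 62 members, the ratio of Retina Input replicate 1 to replicate 2 had Spearman correlations of 0.79 with G and C and -0.47 with mRNA length. Between these inputs 17 members differed by more than 1 on the log2 scale. For the replicates of the retina Ythdf1 IP the correlations were 0.10 and -0.36, and 1 member differed by more than 1. The correlation of the Ythdf1 values with G and C was 0.18 against input replicate 1 alone and 0.66 against replicate 2 alone, and with mRNA length it was 0.30 and -0.03. For Ythdf2 it was -0.29 and 0.42, and the correlation with mRNA length was 0.62 and 0.15. The signs of the 10 called members held against each input alone: Eif3e had -2.63 and -3.18, Eif4e -2.03 and -2.88, Eif1ax -1.79 and -2.75, Eif2s1 -1.68 and -2.42, and Eif4a2 -1.42 and -1.90. Eef1b2 had -2.23 and -2.00, Eif5a -2.48 and -1.34, and Eif2b2 1.45 and 2.47. The part of base composition or of mRNA length in these fold changes was not tested.

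**Figure D5:**
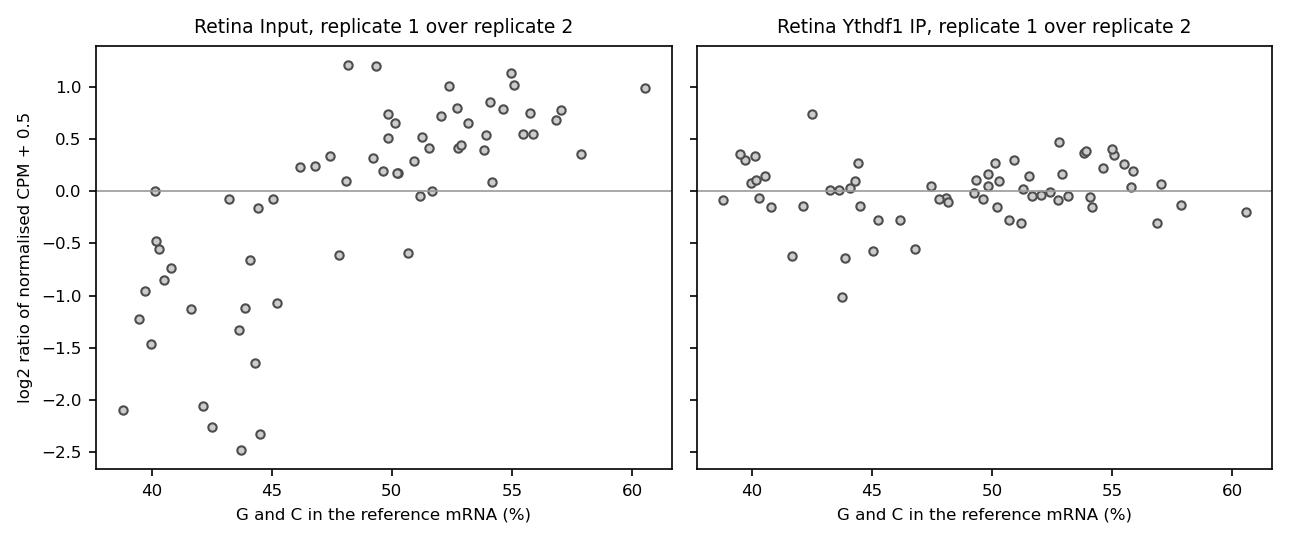
Log2 ratio of replicate 1 to replicate 2 (normalised CPM with 0.5 added) for each of the 62 members against the share of G and C in the reference mRNA (percent), for the retina inputs and for the retina Ythdf1 IP. The input ratio is below 0 for most members of low G and C content and above 0 for most of high content, while the IP ratio stays near 0.

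The letters GGAC, a common core of methylated sites, were counted on the sense strand of each reference mRNA. They occurred in 62 of 62 members and in 99.6% of 14169 protein-coding genes, with medians of 3.99 and 4.17 per kilobase. Eif3e had 0.664 per kilobase, the lowest of the members, Eif4g1 5.32 and Eef2 7.77, while Eif5a, also called lower with Ythdf1, had 4.87. Over the members, GGAC density had a Spearman correlation of 0.52 with the Ythdf1 fold change in the retina, and 0.28 over protein-coding genes. It was 0.35 against input replicate 1 alone and 0.56 against replicate 2 alone, and 0.16 with Ythdf2. Density had a correlation of 0.57 with G and C content, so these features go together in the members. A match is not a measured methylation site.

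The members recalled as terminal oligopyrimidine mRNAs, whose translation follows mTOR, were Eef1a1, Eef1b2, Eef1d, Eef1g, Eef2, Eif3e, Eif3f, Eif3h, Eif4b and Pabpc1. In the retina 2 of these 10 were lower with Ythdf1 and none higher, with a median of -0.39, and of the other 52 members 6 were lower and 2 higher, with a median of -0.48, beside 5.23% of all genes lower and 3.57% higher. With Ythdf2 the medians were -0.60 and -0.38.

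Other genes of translation were also counted. Of 48 regulators and helpers, 3 were higher and 5 lower with Ythdf1 in the retina beside 3.57% and 5.23% of all genes, with a median of -0.40. With Cortex Input replicate 1 left out they were 9 and 15, beside 13.7% and 13.4%. Mtor, the growth kinase that acts on eIF4E-binding proteins, was higher (2.29, SE 0.41, adjusted p = 0.0142), as was Gcn1l1, a partner of the kinase encoded by Eif2ak4 (1.87, SE 0.42, adjusted p = 0.0244). Paip2, which binds and inhibits the poly(A)-binding protein, was lower (-2.27, SE 0.49, adjusted p = 0.0232), as was Eef1e1, a component of the multisynthetase complex (-2.67, SE 0.56, adjusted p = 0.0209). Of 22 genes of the cytosolic aminoacyl-tRNA synthetases, Mars was higher (2.36, SE 0.57, adjusted p = 0.0300) and Dars lower (-2.35, SE 0.54, adjusted p = 0.0259), with a median of 0.62. None of 9 mitochondrial translation factors was called, with 2 at an unadjusted p below 0.05. With Ythdf2 in the retina, and with either antibody in the cortex, none of these genes was called in the 12-library fit. Endothelial markers moved with the retina IPs too, at 38.9 and 39.2 CPM in the inputs, 158 and 156 with Ythdf1, and 83.6 and 84.8 with Ythdf2, and their part in the results was not tested.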

How the data were processed

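Gene counts and FPKM values were deposited by the authors in 1 table of 52550 genes. Per the submitters' processing notes, STAR 2.5, HTSeq and GRCm38 were used; neither the annotation release nor the use of strand is stated there. Per the labels, libraries were made with a stranded kit from RIP eluates and input. The deposited counts were fitted with edgeR 4.0.16 in R 4.3.3 (quasi-likelihood, robust, TMM, filterByExpr with a minimum count of 10), as 12 libraries in 6 groups with 6 residual degrees of freedom. This left 18458 genes and 9 comparisons, two-sided, with Benjamini-Hochberg adjustment over all genes and calls at an adjusted p below 0.05. The fit was also run on simulated counts with 1 fixed spread for all genes and libraries. The spread of the real libraries differs between groups, so that run checks the code and not the error rate in these data. Symbols, coordinates and reference mRNAs came from GENCODE M21, which matched 52403 genes. Alternatives were DESeq2 1.42.0, limma 3.58.1 on log2 of the deposited FPKM values plus 1, library totals, no filter, protein-coding genes alone, a replicate block, libraries of the same tissue alone, other lengths and each library left out. The length of the reference mRNA was added as a measure of length after seeing the data. A count of 0 allows up to 3 counts, which is 0.0283 to 0.356 CPM, covering counting error only.

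Members and lists were chosen with earlier results of these data known. Named genes were members called in an IP against its input, a fixed set (Eif3e, Eif4g1, Eef1a1, Eef1a2, Eef2, Pabpc1, Eif4e, Eif2s1, Etf1, Gspt1), the 3 shortest and 3 longest by exons, those beside the count minimum and, per pathway list, up to 2 called in each direction. Other genes with values were chosen after their values were seen. No pair of replicates had identical values.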

Additional observations from a re-analysis of the deposited data

How the results depend on the processing

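In the retina Ythdf1 comparison, 20 members were called by DESeq2 (19.6% of all genes), 29 with libraries of the same tissue alone (37.6%), and 0 when libraries were scaled by their totals or with limma on log2 FPKM (0% and 0.298%). For Ythdf2 in the retina these were 8, 13, 0 and 0 (8.55%, 20.2%, 0.0108% and 0.211%), with 9 when no filter on low counts was used (2.72%), and for the inputs DESeq2 called 11, library totals 0, limma 0 and no filter 9 (18.7%, 1.94%, 0.628% and 8.38%). Library totals gave a median over all genes of -1.17 between the inputs, 0.13 with Ythdf2 in the retina, -0.58 and 0.72 in the cortex, -1.33 between the cortex IPs, and 0.58 and -0.57 for the tissue differences. DESeq2 called 2 and 3 members in the cortex with Ythdf1 and Ythdf2 (7.29% and 11.99%), 7 between the retina IPs (3.74%) and 4 for the Ythdf1 tissue difference (6.31%), limma 1 with Ythdf2 in the cortex (0.986%), and same-tissue libraries 11 between the retina IPs (9.13%). Without the filter there were 2 and 1 in the cortex (3.54% and 4.37%), and 3 and 1 for the tissue differences of Ythdf1 and Ythdf2 (3.22% and 2.04%). Whether the replicate numbers pair the libraries is not known. Deviations from the group means had correlations of -0.08 to 0.06 between groups, which cannot show whether input and IP came from the same preparation. With a replicate block 2 members, Eef1b2 and Eif3e, were called with Ythdf1 in the retina, and 0 with Ythdf2 and between the inputs (3.65%, 0.991% and 2.64% of all genes). Leaving out 1 library gave 0 to 30 calls with Ythdf1 and 0 to 12 with Ythdf2 in the retina, 0 to 16 and 0 to 14 in the cortex, 0 to 10 between the retina IPs, 0 to 26 between the inputs, and 0 to 28 and 0 to 19 for the tissue differences. The short-minus-long difference was 0.46 by exons, 0.26 by implied length and -0.46 by mRNA for Ythdf1 in the retina, -0.77, -1.08 and -1.18 for Ythdf2, 0.03, -0.023 and 0.037 in the cortex for Ythdf1, and -0.24 by exons and -0.60 by mRNA for Ythdf2. Reversed single values were Eif3e in the cortex, at 0.16 to -0.88 with Ythdf1 across fits without 1 cortex input (0.16 without replicate 2) and 0.27 with Ythdf2 by limma, and Eif4g1 in the cortex with Ythdf1, at -0.38 with library totals. The causes were not tested. With 2 libraries per group, and 11272 member counts in the library labelled Cortex Input replicate 1, members of a few CPM are measured from few counts.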
